A study of Mus musculus with 113 samples.

Results

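The genes described here encode the proteins of the cytosolic ribosome. They were taken by symbol, as every gene named Rps or Rpl with a number, plus *Rplp0*, *Rplp1*, *Rplp2* and *Rpsa*, without the Rps6k kinases. The rule found 86 genes in each of 4 gene tables, of 13541 genes in the SFEB cell populations, 11449 in the SFEB single cells, 13738 in the adherent monoculture and 23107 in the E14 samples. By role they were 43 proteins of the large subunit, 31 of the small subunit, 3 of the stalk, 8 paralogs of other members and *Rps19bp1*, whose product binds a ribosomal protein but is not one.

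A ribosome joins a small subunit, which reads the messenger RNA, to a large subunit, which forms the peptide bonds. Each holds ribosomal RNA and 1 copy of most of its proteins, so the genes are usually expressed together and at high level, and dividing stem cells make many ribosomes. Some of the genes have a paralog elsewhere in the genome, and several X-linked genes have an autosomal paralog known from the male germ line, where the X chromosome is silenced.

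The study followed mouse embryonic stem cells through neural differentiation by RNA sequencing. R1 cells were grown as floating aggregates without serum (SFEB), and 14 populations of a first series were collected from 0 h to 142 h and 8 of a parallel series from 0 h to 216 h. R1 cells in adherent monoculture gave 15 samples from 0 h to 216 h, and 64 manually picked SFEB cells covered 8 time points with 8 cells each. E14 cells, wild type (WT) or with *Fyn* deleted by CRISPR (KO, 1 clone), gave 3 libraries per genotype before differentiation (day 0) and 3 at day 4. Every time point of the R1 courses was 1 library, so trends over time were tested against the scatter around a line and not against replicate error. Before differentiation the cells had been passaged once without feeder cells.

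*Fyn* encodes a Src family kinase. In the WT libraries its level was 3.21, 2.74 and 4.00 FPKM (fragments per kilobase of transcript, scaled to library size) at day 0 and 9.44, 4.54 and 6.76 FPKM at day 4, and in the KO libraries it was 0.598, 0.598 and 1.10 FPKM at day 0 and 1.19, 1.13 and 1.58 FPKM at day 4. Each KO library lay below each WT library of the same day, and none was at 0. The limma difference of KO from WT on log2(FPKM + 1) was -1.74 at day 4 (adjusted p = 0.0193) and -1.29 at day 0 (adjusted p = 0.0601).

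Markers of the starting and final states moved in the direction of differentiation in the courses. Of 9 naive pluripotency genes measured, 9 fell in the first series, 7 in the parallel series and 9 in the adherent course, and of 8 neural progenitor genes 7, 8 and 8 rose. *Dppa5a*, the most abundant naive marker, was at 818 FPKM at 0 h and 70.7 FPKM at 142 h of the first series, and *Fabp7*, the most abundant progenitor marker, was at 13.2 and 444 FPKM. The 9 neuron genes measured gave 7 rises in each course, with *Tubb3* the most abundant. Fibroblast genes were also measured at the start: the 15 genes summed to 1684 FPKM at 0 h, 128 FPKM at 34 h and 75.3 FPKM at 142 h of the first series, with *Sparc* the most abundant. In the parallel series the sum was 1784 FPKM at 0 h and 242 FPKM at 216 h, and in the adherent course 1181 FPKM at 0 h, 152 FPKM at 53.5 h and 818 FPKM at 144 h. Mesoderm and endoderm genes summed to 71.2 FPKM in the adherent 144 h library and to at most 54.5 FPKM in any other library, a value of the parallel series at 106 h. The picked cells of 0 h also carried fibroblast genes (mean sum of 10 genes 284 RPKM, highest 885 RPKM, reads per kilobase scaled to library size). The naive sum was at least 712 RPKM in each of these cells, so the sums do not show whether another cell type was present. *Pou5f1* was the most abundant gene of the naive list in the cells. The mean sum of that list was 1606 RPKM at 0 h, 758 RPKM at 9 h, 1049 RPKM at 60 h and 158 RPKM at 216 h, so it did not fall steadily. In the cells 6 mesoderm and endoderm genes had a mean sum of 132 RPKM at 84 h (highest 1037 RPKM). At 216 h the mean was 55.9 RPKM (highest 358 RPKM), and at the other time points at most 10.7 RPKM.

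In the E14 libraries the naive genes summed to 3563, 4544 and 4495 FPKM in WT and 4323, 5097 and 3711 FPKM in KO at day 0. At day 4 the sums were 764, 2091 and 1779 FPKM in WT and 1539, 2115 and 1938 FPKM in KO. The neural progenitor genes, with *Sox11* the most abundant, summed to 197, 28.7 and 57.1 FPKM in WT and 20.4, 18.4 and 37.9 FPKM in KO at day 4. All day 4 libraries lay below the day 0 libraries in the naive sum, and WT replicate 1 of day 4 stood apart with the lowest naive and highest progenitor sum. In the neuron list *Stmn2* was at 168, 110 and 157 FPKM in KO at day 0 against 69.3, 12.9 and 25.3 FPKM in WT. Limma called no gene of that list between KO and WT, and its other genes are not given here by library. Fibroblast genes summed to between 40.1 and 335 FPKM in the 12 libraries, with *Sparc* the most abundant.

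The members held a large share of the summed FPKM, which is scaled by length and so is not a share of reads or of RNA mass. Of the summed FPKM their share was lowest at 19.5%, with a median of 21.0% and a highest value of 26.3%, over the 14 first-series populations. The corresponding values were 15.01%, 20.6% and 22.5% in the parallel series and 20.1%, 23.2% and 25.7% in the adherent course. The highest first-series share was that of the 2 h library, and the last time point, 216 h, had the lowest share in both courses that reached it. In bulk samples, fewer cells of a type and less RNA per cell cannot be told apart.

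In E14 the share was 29.1% ± 1.91 (SD, n = 3) in WT and 29.7% ± 1.79 in KO at day 0, and 24.9% ± 6.79 in WT and 29.7% ± 5.09 in KO at day 4. The wide spread at day 4 came with 3 libraries in which genes of small nucleolar RNAs and microRNAs held much of the total: 41.5% in WT replicate 1, 23.1% in WT replicate 2 and 28.8% in KO replicate 2. In the other 9 libraries they held between 0.358% and 4.99%. With those genes left out of the total, the share was 29.7% ± 1.19 and 31.7% ± 0.951 in WT at days 0 and 4, and 30.4% ± 2.35 and 33.5% ± 1.35 in KO. The day 4 means were then both above the day 0 means, whereas with all genes in the total the WT mean was lower at day 4. Each WT day 4 library (30.7%, 32.6% and 31.8%) was then above each WT day 0 library (28.3%, 30.5% and 30.2%), while 1 KO library of day 0 (32.6%) lay above 1 of day 4 (32.2%). The share over the members was not tested.

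**Figure D1:**
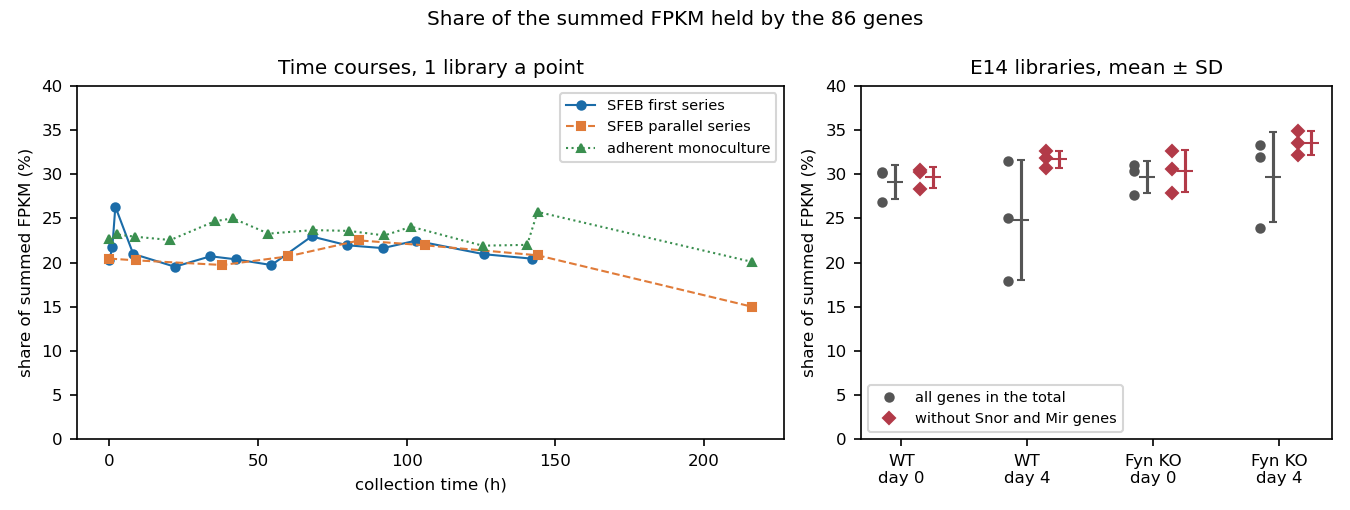
Share of the summed FPKM (%) held by the 86 genes against collection time (h) in the R1 courses, 1 library a point, and in the 12 E14 libraries (points, with mean and SD as bars), with all genes in the total or without small RNA genes. The courses stayed between 15.01% and 26.3%, and the day 4 spread in WT shrank from an SD of 6.79 to 0.951 points without the small RNA genes.

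Levels differed widely among members. By mean FPKM, which is per length, the highest in SFEB populations were *Rps26* (5346), *Rps12* (4153) and *Rpl41* (4068), in the adherent course *Rpl41* (6784), *Rps26* (5364) and *Rps12* (4909), and in E14 *Rpl38* (9653), *Rps26* (8433) and *Rpl41* (8064). At the other end, *Rpl3l*, a paralog known from striated muscle, had a median of 0.699 FPKM in the first series, and its value in the 103 h library was below 0 after the batch correction and was set to 0. *Rps27*, a small subunit protein, had a median of only 4.81 FPKM in that series, while its paralog *Rps27l* had a median of 389 FPKM. The order of the genes was much alike between SFEB and adherent cells (Spearman rho across 86 genes 0.957), less so between SFEB and E14 (0.713) or SFEB populations and cells (0.564). Genes are not independent replicates, and the tables were made separately, E14 on another genome build. In sum over genes, the large subunit exceeded the small one in each bulk library, by a ratio between 1.20 and 1.33 in the first series, 1.26 and 1.32 in the parallel series, 1.23 and 1.305 in the adherent course and 1.08 and 1.27 in E14. These sums cover 43 against 31 genes, so the mean per gene was higher for the small subunit in each library.

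Ribosomal protein genes have many processed copies in the genome, and the methods of the study kept at most 1 alignment per read. For the 85 members with a transcript in the annotation, the share of 100-base windows that occur exactly elsewhere in mm9 had a median of 47.2%. That share was computed with 3 ways of choosing the transcript, and it was above 50% with each of them in 36 genes and 0 with each of them in 7. *Rps27* had the highest share, 99.6%, so its low level is uncertain. Levels of other members with high shares are uncertain for the same reason, among them *Rps12* (97.8%), *Rps6* (94.4%), *Rpl23a* (93.9%), *Rpl10* (93.9%), *Rpl36a* (91.7%) and *Rpl9* (87.1%). Most of the paralogs were at the unique end: *Rpl39l*, *Rpl3l* and *Rps27l* had 0%, *Rps4y2* 1.66%, *Rpl7l1* 2.83% and *Rpl10l* 9.22%, against 47.2% for *Rpl22l1* and 54.8% for *Rpl36al*. Across the 85 genes the share and the level went together only weakly (Spearman rho between 0.175 and 0.267 over the data sets and transcript choices), and its part in the levels was not tested.

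**Figure D2:**
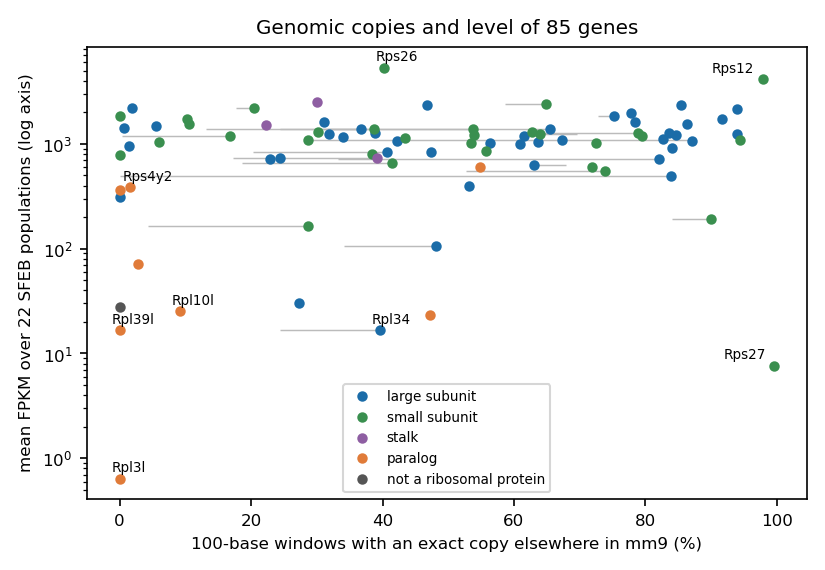
Mean FPKM over the 22 SFEB populations (log axis) against the share of 100-base windows with an exact copy elsewhere in mm9 (%) for 85 genes, coloured by role, with grey lines for the range over 3 transcript choices. *Rps27* sits at 99.6% with a low level, and *Rpl39l* and *Rpl3l* sit at 0%.

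The courses answer how the genes moved as stem cells became neural. In all of them the clearest movement was in 3 paralogs, *Rpl10l*, *Rpl39l* and *Rps4y2*, which fell by more than any other member, while their X-linked parents *Rpl10*, *Rpl39* and *Rps4x* were not called lower in any course unless library medians were aligned. Among the other members the calls differed between the courses, and in the parallel series the members' summed level was lowest at 216 h, at 62287 FPKM against 96143 FPKM at 0 h. The trends below are fitted slopes per 100 h on log2(FPKM + 1), and the first and parallel series were fitted apart.

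In the first SFEB series, limma called 3 of 86 members higher and 11 lower with time, or 14 of 86, where 54.9% of all 13115 genes tested were called (30.5% higher and 24.4% lower). The members' median slope was -0.07 and that of all genes 0.05, with 28 members above 0 and 58 below. This balance turned with the scaling: aligning the libraries' medians moved the all-gene median by -0.14 and gave 9 above and 77 below, and quantile normalization gave 43 and 43. Members called higher numbered 0 with aligned medians and 9 with quantile normalization, where all genes called higher numbered 3050 and 3901, so a direction for the family as a whole is not given.

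By role, the large subunit had 2 members higher and 4 lower of 43 in the first series, and the small subunit 1 and 1 of 31. *Rpl36a*, a large subunit protein, was lowest at 1286 FPKM (0 h), with a median of 1895 and a highest value of 2232 FPKM (142 h), and its slope was 0.44 (SE 0.12, adjusted p = 0.00452). *Rpl31*, which lies near the exit of the peptide tunnel, ran from 785 FPKM (2 h) over a median of 1117 to 1383 FPKM (92 h), with a slope of 0.38 (adjusted p = 0.00894). *Rps7*, of the small subunit, ran from 597 FPKM (0 h) over a median of 878 to 1046 FPKM (142 h), with a slope of 0.27 (adjusted p = 0.0465). Late libraries were mostly above early ones for these 3, with overlap, and the 2 h value of *Rps7* was among its highest. None of them was called higher with aligned medians. The *Rps7* call ended with any of 12 of the 14 libraries left out, all but those of 2 h and 34 h, with adjusted p values from 0.0502 (80 h) to 0.131 (142 h). Of the stalk, which recruits elongation factors, *Rplp2* fell: it ran from 485 FPKM (142 h) over a median of 739 to 1540 FPKM (2 h), with a slope of -0.60 (SE 0.16, adjusted p = 0.00503). Its highest value was in the library with the highest share. Without the 2 h library, 12 members were called higher, and without that of 0 h 17 were lower, where all genes gave 4020 higher and 3265 lower, close to 4001 and 3194 with all libraries. Lower calls numbered 7 without 126 h and 6 without 142 h, and 2819 and 2859 over all genes.

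The paralogs gave 4 of the 11 falls. *Rpl10l*, the autosomal paralog of *Rpl10*, had a lowest level of 0.958 FPKM (142 h), a median of 25.4 FPKM and a highest level of 69.4 FPKM (34 h). Its level went up over the first 34 h, with a dip at 8 h, and then down at each later time point. The slope was -3.62 (SE 0.38, adjusted p = 1.5e-06). *Rpl39l*, the autosomal paralog of the tunnel protein gene *Rpl39*, ran from 0.255 FPKM (126 h) over a median of 14.98 to 68.0 FPKM (34 h), with a slope of -2.87 (SE 0.57, adjusted p = 0.000552). *Rps4y2*, an autosomal copy of *Rps4x*, ran from 59.0 FPKM (142 h) over a median of 430 to 657 FPKM (34 h), with a slope of -2.21 (SE 0.25, adjusted p = 3.5e-06). All 3 were highest at 34 h, when the fibroblast sum was 128 FPKM, and lowest at 126 h or 142 h. Over the same libraries *Rpl10* lay between 1118 and 1553 FPKM, *Rpl39* between 492 and 1064 FPKM and *Rps4x* between 964 and 1999 FPKM, each with its highest value at 2 h. The fitted slopes of the parents were 0.08, 0.22 and 0.04, none called, though without the 2 h library *Rpl39* and *Rps4x* were called higher. *Rpl3l* was at most 1.34 FPKM and had a slope of -0.78 (adjusted p = 0.000113). *Rpl22l1*, between 14.6 and 42.2 FPKM, was not called. *Rps19bp1*, not a ribosomal protein, lay between 18.7 and 44.5 FPKM with a slope of -0.39 (adjusted p = 0.0464), and its call ended with 11 of the 14 libraries left out in turn, all but 0 h, 1 h and 103 h (adjusted p up to 0.169).

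**Figure D3:**
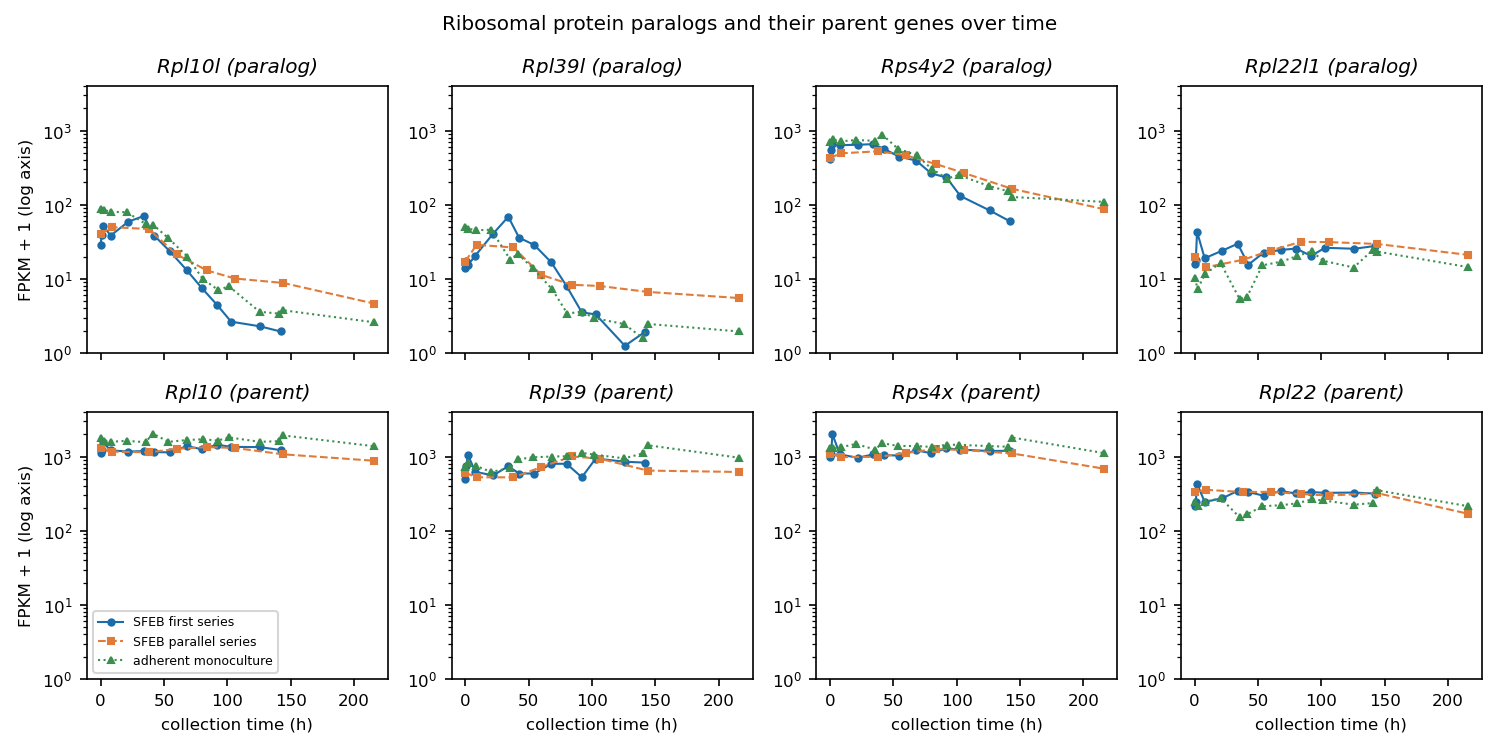
Level (FPKM + 1, log axis) of 4 paralogs (top) and their parent genes (bottom) against collection time (h) in the first SFEB series, the parallel SFEB series and the adherent course, 1 library a point. *Rpl10l* in the first series went from 69.4 FPKM at 34 h to 0.958 FPKM at 142 h, while *Rpl10* stayed between 1118 and 1553 FPKM.

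In the parallel series 0 of 86 members were called higher and 22 lower by limma, where 44.8% of all genes were called (26.7% higher and 18.1% lower). At an unadjusted p below 0.05, 0 were higher and 32 lower, and 7018 of all 13115 genes passed, 4094 of them higher. The members' median slope was -0.22 against 0.06 over all genes, with 6 members above 0 and 80 below. Aligned medians, which moved the all-gene median by -0.17, gave 4 above and 82 below and 50 members lower, with 3745 of all genes lower. Quantile normalization gave 30 above and 56 below, with 3 higher and 14 lower, and 2796 and 2996 of all genes. Without the 216 h library 1 member was higher and 4 were lower, and with the 6 libraries before 144 h alone 2 were higher and 1 lower. Calls over all genes dropped too, from 3499 higher and 2373 lower to 1678 and 954 without 216 h and to 667 and 546 before 144 h. Without the 38 h or the 60 h library 13 members were lower, and of all genes 2027 and 2157.

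The large subunit had 12 of its 43 members lower in the parallel series and the small subunit 2 of 31. *Rpl26*, of the large subunit, ran from 116 FPKM (216 h) over a median of 400 to 564 FPKM (84 h), with a slope of -0.77 (SE 0.20, adjusted p = 0.0140). Its 216 h library was far below the other 7. Without it the slope was -0.23 (adjusted p = 0.432), and over the libraries before 144 h it was 0.10. *Rpl30*, also of the large subunit, ran from 44.6 FPKM (216 h) over a median of 113 to 147 FPKM (60 h), with a slope of -0.65 (SE 0.14, adjusted p = 0.00582). Without 216 h its slope was -0.45 (adjusted p = 0.140). Between 34.2% and 48.2% of the *Rpl30* windows had a copy elsewhere over the transcript choices, so its level is uncertain too. *Rplp1* of the stalk ran from 1233 FPKM (216 h) over a median of 2348 to 2480 FPKM (84 h), with a slope of -0.40 (adjusted p = 0.0197), and -0.15 (adjusted p = 0.330) without 216 h.

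Of the 8 paralogs 6 fell in the parallel series. *Rpl10l* ran from 3.65 FPKM (216 h) over a median of 16.2 to 49.0 FPKM (9 h), with a slope of -1.67 (SE 0.18, adjusted p = 0.000357). *Rps4y2* ran from 86.5 FPKM (216 h) over a median of 390 to 525.6 FPKM (38 h), with a slope of -1.20 (SE 0.14, adjusted p = 0.000458). *Rpl39l* ran from 4.53 FPKM (216 h) over a median of 8.85 to 27.9 FPKM (9 h), with a slope of -1.09 (SE 0.21, adjusted p = 0.00392). All 3 were highest at 9 h or 38 h and lowest at 216 h, and these calls held with any 1 of the 8 libraries left out. *Rpl10* (878 to 1344 FPKM), *Rpl39* (524 to 1003 FPKM) and *Rps4x* (688 to 1266 FPKM) were not called, except *Rpl10*, which was called lower with aligned medians. The other falls were smaller: *Rpl7l1* had a slope of -0.39 (adjusted p = 0.00644), *Rps27l* -0.39 (adjusted p = 0.0260) and *Rpl3l* -0.35 (adjusted p = 0.0418). Without 216 h none of these 3 was called (adjusted p = 0.141, 0.380 and 0.123), without 144 h neither *Rps27l* nor *Rpl3l*, and the *Rpl3l* call held only without 9 h. Over the libraries before 144 h the slope of *Rps27l* was 0.12. *Rps19bp1*, not a ribosomal protein, also fell, with slopes from -0.46 to -0.33 over the 8 libraries left out in turn. Its call held with each of them left out, but not over the libraries before 144 h alone.

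In the adherent monoculture 2 of 86 members rose and 26 fell, where 59.7% of all 13258 genes tested were called (35.9% higher and 23.8% lower). The members' median slope was -0.10 and that of all genes 0.09, with 23 members above 0 and 63 below. With aligned medians, which moved the all-gene median by -0.21, 4 were above 0 and 82 below, and 0 were called higher and 57 lower, where all genes went from 4759 higher and 3155 lower to 3161 and 4976. Quantile normalization, which moved it by -0.11, gave 44 above and 42 below, with 9 called higher and 14 lower, and 3719 and 4037 of all genes. Without 216 h, 5 members were higher and 13 lower, and without 20.5 h 4 were higher. Higher calls numbered 1 without 2.5 h, 140.5 h or 144 h. Over all genes, leaving out 1 library gave 4481 to 4799 higher and 2933 to 3241 lower.

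In the adherent course the large subunit had 1 member higher and 12 lower, the small subunit 0 and 6, and the stalk 0 and 1. *Rpl39*, the large subunit protein in the peptide tunnel, ran from 621 FPKM (20.5 h) over a median of 966 to 1422 FPKM (144 h), with a slope of 0.34 (SE 0.10, adjusted p = 0.00597). *Rpl26* ran from 264 FPKM (144 h) over a median of 359 to 534 FPKM (20.5 h), with a slope of -0.39 (adjusted p = 0.00113). *Rplp1* had a slope of -0.37 (adjusted p = 0.000317). *Rpl39* was low up to 35.5 h and higher after, with the highest value in the 144 h library, in which the fibroblast sum was also high. Its rise was not called with aligned medians.

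Again the paralogs moved most, with 6 lower and 1 higher of 8. *Rpl10l* ran from 1.60 FPKM (216 h) over a median of 19.0 to 86.7 FPKM (0 h), with a slope of -2.99 (SE 0.24, adjusted p = 1.1e-07). *Rpl39l* ran from 0.576 FPKM (140.5 h) over a median of 6.31 to 49.0 FPKM (0 h), with a slope of -2.79 (SE 0.31, adjusted p = 1.7e-06). *Rps4y2* ran from 109 FPKM (216 h) over a median of 463 to 876 FPKM (41.5 h), with a slope of -1.63 (SE 0.14, adjusted p = 1.7e-07). Here *Rpl10l* and *Rpl39l* were highest at the start and *Rps4y2* at 41.5 h, and late libraries lay below the early ones for all 3. The parent *Rpl10* lay between 1379 and 2040 FPKM and *Rps4x* between 1116 and 1807 FPKM, and neither was called, although both were called lower with aligned medians. *Rpl22l1*, the paralog of *Rpl22*, went the other way: it ran from 4.39 FPKM (35.5 h) over a median of 14.3 to 23.5 FPKM (140.5 h), with a slope of 0.62 (SE 0.24, adjusted p = 0.0358). Its low values at 35.5 h and 41.5 h lay among higher ones, and the call ended without 0 h (adjusted p = 0.0535), 2.5 h (0.0808), 140.5 h (0.0744) or 144 h (0.0722). Falls were also called for *Rpl3l* (-0.79, adjusted p = 3.7e-05), *Rpl36al* (-0.45, adjusted p = 0.000142), *Rpl7l1* (-0.33, adjusted p = 9.2e-05) and *Rps19bp1* (-0.47, adjusted p = 8.3e-06).

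Over all settings tried, including each library left out in turn, the falls of *Rpl10l* were called in 20 of 20 settings in the first series, 14 of 14 in the parallel series and 21 of 21 in the adherent course. For *Rpl39l* and *Rps4y2* the counts were 20 of 20, 13 of 14 and 21 of 21. The setting that ended their calls in the parallel series was the use of the libraries before 144 h alone. Fibroblast genes fell over the same courses, 14 of 15 in the first, 3 of 15 in the parallel and 10 of 15 in the adherent course, and their part in the falls of these paralogs was not tested.

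The paralogs differed from their parents in sequence. The coding sequences were 84.8% identical for *Rpl10l* and *Rpl10*, 85.3% for *Rpl39l* and *Rpl39* and 80.1% for *Rps4y2* and *Rps4x*, and 0 of the 100-base windows of these transcripts matched the other gene within 6 mismatches, the limit given in the study's methods. The closest windows had 10 mismatches for *Rpl10l* and 11 for *Rpl39l* and *Rps4y2*. The same held for the other pairs except *Rpl36al*, where 17 of 427 windows matched *Rpl36a* within 6 mismatches and 0 within 2. In 4 of the 8 pairs the parent is on the X chromosome and the paralog on an autosome: *Rpl10l* and *Rpl36al* are on chromosome 12, *Rpl39l* on 16 and *Rps4y2* on 6. The first 60 bases of the coding sequences (GENCODE annotation of mm9) are shown for the 3 pairs that carry the falls, because they show differences between the genes. Capitals mark the bases that differ within a pair, 9 for *Rpl10l*, 4 for *Rpl39l* and 7 for *Rps4y2*.
Rpl10l: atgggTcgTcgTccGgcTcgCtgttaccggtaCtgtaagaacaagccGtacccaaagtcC
Rpl10: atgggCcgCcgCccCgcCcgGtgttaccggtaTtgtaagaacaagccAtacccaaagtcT
Rpl39l: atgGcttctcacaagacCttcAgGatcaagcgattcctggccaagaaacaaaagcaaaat
Rpl39: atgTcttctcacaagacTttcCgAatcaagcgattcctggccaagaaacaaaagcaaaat
Rps4y2: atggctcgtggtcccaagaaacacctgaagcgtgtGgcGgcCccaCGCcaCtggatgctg
Rps4x: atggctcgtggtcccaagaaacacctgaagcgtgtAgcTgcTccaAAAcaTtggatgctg

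Many ribosomal protein messengers start in a run of pyrimidines, through which their translation is controlled. RefSeq promoters (GRCm38.p6) matched 61 of the 77 members that are neither paralogs nor *Rps19bp1*. A run of 8 or more C or T between 30 bases before and 20 after the start was present in 31 of them (50.8%), against 22.9% of all 27025 genes with a promoter. A run anywhere in these 50 bases was counted, so it does not show that the messenger starts in the run. In the 300 bases of the promoter, searched on both strands, CCGGAAG was present in 24 (39.3%) against 9.93% of all genes, AAGATGG in 9 (14.8%) against 7.28%, CACGTG in 6 (9.84%) against 8.09% and TATAAA in 7 (11.5%) against 15.7%. Among the paralogs and parents, both genes had such a run for *Rpl39l* and *Rpl39* and, in at least 1 window, for *Rps27l* and *Rps27*. *Rpl22l1* had a run and *Rpl22* did not, and *Rpl10l*, *Rpl10*, *Rpl36al*, *Rpl36a*, *Rpl3l*, *Rpl7l1* and *Rps4x* had none. The 50 bases around the start are shown for *Rpl39l* and *Rpl39*, with the runs in capitals, at chr16:10170198-10170247 on the plus strand and chrX:37085203-37085252 on the minus strand. The start follows the first 30 bases shown. The *Rpl39l* run lies before it, and the *Rpl39* runs lie before and after it.
Rpl39l: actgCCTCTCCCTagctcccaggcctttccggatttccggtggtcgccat
Rpl39: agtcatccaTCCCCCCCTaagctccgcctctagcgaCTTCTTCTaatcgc

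The E14 libraries allow tests between replicates. They answer which members changed over 4 days of differentiation in each genotype, and whether the genotypes differed. In WT, *Rpl10l* and *Rps4y2* fell and *Rps19* and *Rpsa* were among 3 members that rose by small amounts. In KO, 7 members rose and *Rpl10l* fell. No member was called between the genotypes at either day or in the difference of the day 4 changes. Of all genes 15.5% rose and 10.3% fell in WT, and 11.8% and 7.56% in KO. Between the genotypes 0.0734% of all genes were called at day 4, 0.171% at day 0 and 0% in the difference of the changes. The comparisons share libraries, since each group enters several of them.

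In WT at day 4 against day 0, 3 of 85 members tested were higher and 2 lower, or 5 of 85, where 25.8% of all 12257 genes were called (15.5% higher and 10.3% lower). *Rpl3l* was below the filter. The members' median log2 change was 0.13 against 0.08 over all genes, with 62 above 0 and 23 below. With aligned medians 51 were above and 34 below, and 0 were called higher and 2 lower.

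Of the small subunit 2 of 31 members rose in WT. *Rps19*, mutated in Diamond-Blackfan anemia, was at 948, 996 and 949 FPKM at day 0 and 1274, 1281 and 1286 FPKM at day 4, a change of 0.41 (SE 0.12, adjusted p = 0.0280). *Rpsa*, also known as the laminin receptor precursor, was at 1049, 1062 and 1055 FPKM at day 0 and 1354, 1317 and 1288 FPKM at day 4, a change of 0.32 (SE 0.10, adjusted p = 0.0395). In both genes each day 4 library lay above each day 0 library. The calls were near the threshold: of 12 libraries left out in turn, the call ended in 6 cases for *Rps19* (adjusted p up to 0.0754) and 8 for *Rpsa* (up to 0.101). Neither rise was called with aligned medians, with no filter or with no variance trend. Rises numbered 0 without WT replicate 1 or 2 of day 0 or WT replicate 1 or 3 of day 4, and 1 without WT replicate 3 of day 0, WT replicate 2 of day 4 or KO replicate 1 of day 0. Over all genes the rises in these 7 cases numbered 1106 to 1716, against 1904.

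The falls in WT were those of 2 of 7 paralogs. *Rpl10l* was at 32.8, 125 and 69.1 FPKM at day 0 and 7.80, 22.5 and 6.93 FPKM at day 4. Each day 4 library lay below each day 0 library, although the day 0 libraries spread widely. The change was -2.50 (SE 0.58, adjusted p = 0.0102), and the call held with any library left out. *Rps4y2* was at 465, 769 and 818 FPKM at day 0 and 183, 335 and 460 FPKM at day 4, a change of -1.12 (SE 0.30, adjusted p = 0.0200). The groups did not overlap, by a narrow gap, and the lowest value was that of WT replicate 1. Its call ended without WT replicate 1 of day 4 (-0.76, adjusted p = 0.0607), WT replicate 2 of day 0 (-1.02, 0.0752) or WT replicate 3 of day 0 (-0.97, 0.0754), and with each the count of falls was 1. Over all genes the falls numbered 842, 725 and 711 in the same order, against 1262. *Rpl39l* was at 22.1, 55.3 and 24.6 FPKM at day 0 and 6.63, 52.2 and 15.1 FPKM at day 4. Replicate 2 was high on both days and each replicate was lower at day 4, but the groups overlapped, and the change of -0.78 was not called (adjusted p = 0.475). *Rpl22l1* was at 152, 148 and 212 FPKM at day 0 and 209, 282 and 244 FPKM at day 4, with overlap between the highest day 0 and lowest day 4 library. Each replicate was higher at day 4, and the change of 0.53 was not called (adjusted p = 0.0612), nor was it with the replicate number as a block (adjusted p = 0.0505).

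In KO at day 4 against day 0, 7 of 85 members rose and 1 fell, where 19.3% of all genes were called (11.8% higher and 7.56% lower). At an unadjusted p below 0.05 there were 27, of which 26 were higher, and 4263 of all 12257 genes, of which 2478 were higher. The members' median change was 0.24 against 0.05 over all genes, with 72 above 0 and 13 below. Quantile normalization gave 54 above and 31 below, with 1 called higher and 0 lower. Fewer rises and no fall were called with no filter or with no variance trend.

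The large subunit gave 3 of the KO rises and the small subunit 3. *Rpl9*, whose copies make its level uncertain, was at 1347, 1278 and 1210 FPKM at day 0 and 1670, 1584 and 1914 FPKM at day 4, a change of 0.43 (adjusted p = 0.0219). *Rpl11*, whose product can bind Mdm2, had a change of 0.40 (adjusted p = 0.0215). *Rps19* was at 1025, 1125 and 867 FPKM at day 0 and 1253, 1252 and 1539 FPKM at day 4, a change of 0.42 (adjusted p = 0.0302). *Rps21* was at 3672, 3993 and 3599 FPKM at day 0 and 4721, 4801 and 5741 FPKM at day 4, a change of 0.43 (adjusted p = 0.0298). *Rps6*, the target of the S6 kinases, changed by 0.35 (adjusted p = 0.0454). In the 3 genes given by library each day 4 library lay above each day 0 library, and KO replicate 3 was the highest of day 4 and the lowest of day 0. *Rpl11* and *Rps6* were outside the rule for named genes and were added after their values were seen. With 1 of the 12 libraries left out in turn, the call ended in 2 cases for *Rpl9* (adjusted p up to 0.0895), 3 for *Rpl11* (0.0867), 3 for *Rps19* (0.119), 5 for *Rps21* (0.114) and 9 for *Rps6* (0.128), each time without KO replicate 3 of day 4 among them. Rises numbered 0 without KO replicate 3 of day 4, 1 without KO replicate 1 of day 0 and 3 without KO replicate 2 or 3 of day 0. Over all genes the rises went from 1443 to 649, 786, 636 and 1857 without these 4 libraries in the same order.

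Among the paralogs in KO, *Rps27l*, a p53-responsive paralog of *Rps27*, was at 562, 575 and 683 FPKM at day 0 and 975, 767 and 932 FPKM at day 4. Each day 4 library lay above each day 0 library, and the change was 0.55 (SE 0.14, adjusted p = 0.0168). In WT it was at 737, 795 and 781 FPKM at day 0 and 652, 854 and 817 FPKM at day 4, with overlapping groups. The KO call ended without KO replicate 1 (0.50, adjusted p = 0.0703) or 2 (0.52, 0.0691) of day 0, or KO replicate 1 (0.48, 0.0562) or 3 (0.52, 0.0654) of day 4. *Rpl10l* was at 21.6, 53.8 and 77.9 FPKM at day 0 and 20.4, 10.0 and 8.38 FPKM at day 4, a change of -1.82 (SE 0.58, adjusted p = 0.0483). Replicate 1 hardly differed between the days, and the call ended with 7 of the 12 libraries left out, with adjusted p values from 0.0522 (WT replicate 1 of day 4) to 0.156 (KO replicate 3 of day 4). The other 5 were WT replicate 3 of either day, KO replicate 2 of either day and KO replicate 3 of day 0. The *Rpl10l* fall in KO was also not called with no filter, with quantile normalization or with no variance trend. *Rps4y2* was at 469, 644 and 522 FPKM at day 0 and 414, 331 and 309 FPKM at day 4. Each day 4 library lay below each day 0 library, but the change of -0.63 was not called (adjusted p = 0.165).

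**Figure D4:**
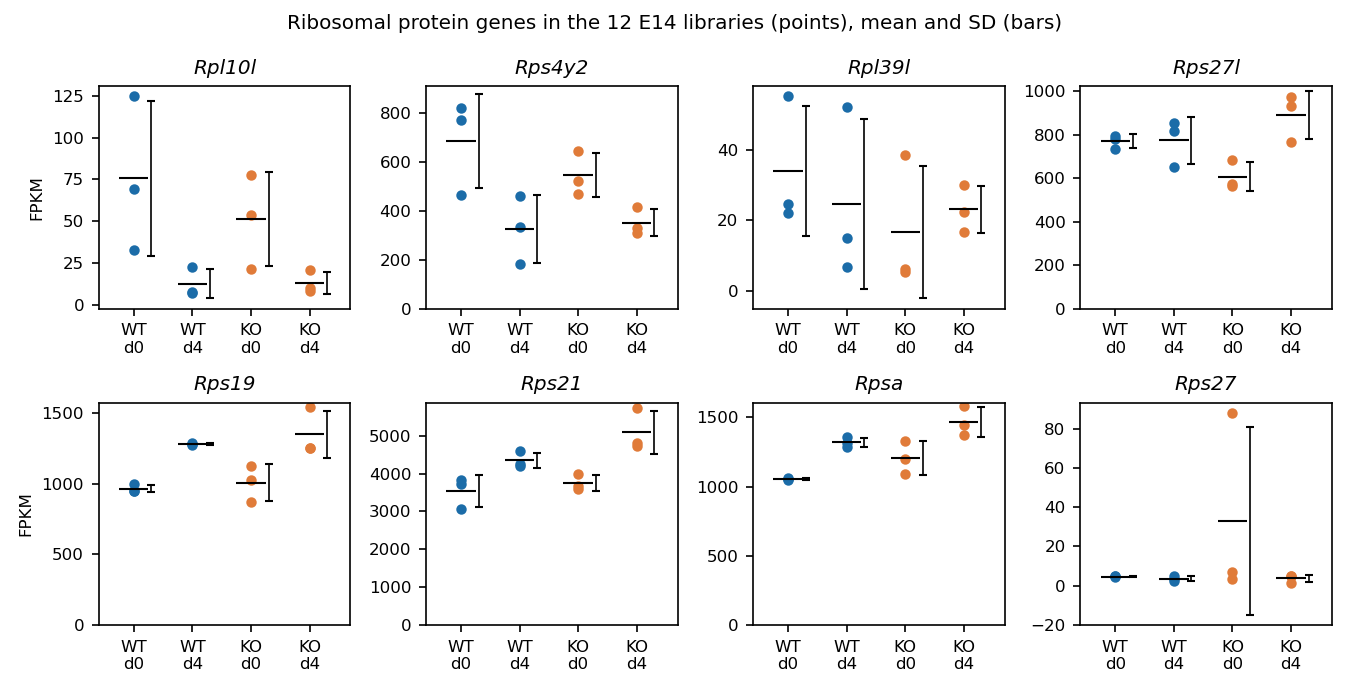
Level (FPKM) of 8 members in the 12 E14 libraries (points) by genotype and day (d0, d4), with mean (line) and SD (bar), n = 3 per group. *Rpl10l* was at 6.93 to 22.5 FPKM in WT at day 4, below the 32.8 to 125 FPKM of WT at day 0.

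Between KO and WT, limma called 0 of 85 members at day 4, where 0.0734% of all genes were called (0.00816% higher and 0.0653% lower), and 3 passed an unadjusted p below 0.05, as did 1483 of all 12257 genes. At day 0 it called 0 of 85, where 0.171% of all genes were called (0.0408% higher and 0.131% lower), and 5 passed an unadjusted p below 0.05, all lower, while 1785 of all genes passed, 717 of them higher. The members' median difference was 0.16 at day 4 against -0.03 over all genes, with 69 above 0 and 16 below, and 0.05 at day 0 against 0.00, with 57 above and 28 below. Quantile normalization gave 52 above and 33 below at day 4. At day 4 *Rpl36al* had the largest difference of the 3, 0.39 (adjusted p = 0.367). At day 0 *Rpl31* was at -0.42 (adjusted p = 0.217) and *Rps27l* at -0.35 (adjusted p = 0.268), both among the 5. *Rpl39l* was at 5.35, 6.18 and 38.5 FPKM in KO at day 0 and 30.1, 16.8 and 22.4 FPKM at day 4. Its difference at day 0 was -1.403 (adjusted p = 0.420), with 2 KO libraries below the WT ones and the third among them. Its change in KO was 0.95, against the WT direction, and was not called (adjusted p = 0.396). *Rps27* lay between 1.55 and 7.04 FPKM in 11 libraries and at 88.3 FPKM in KO replicate 2 of day 0, and its 99.6% copied windows leave that value uncertain.

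The difference of the day 4 changes was called for 0 of 85 members by limma and for 0% of all genes, and 1 member, *Rps27l*, passed an unadjusted p below 0.05, as did 537 of all 12257 genes. Its limma difference was 0.56 (adjusted p = 0.997). For the other members called in only 1 genotype the differences were 0.49 for *Rps4y2* and between -0.04 (*Rpsa*) and 0.27 (*Rpl9*) for the rest. *Rpl39l* had the largest difference of all members, 1.73 (SE 1.06, adjusted p = 0.997). The members' median was 0.11 against -0.03 over all genes, with 73 above 0 and 12 below, and quantile normalization gave 45 above and 40 below. A gene called in 1 genotype and not in the other was thus not shown to differ between them.

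Lists of genes that build or use ribosomes are given beside the members. Of all genes 30.5% rose and 24.4% fell in the first series, 26.7% and 18.1% in the parallel series and 35.9% and 23.8% in the adherent course. Of 67 ribosome biogenesis genes measured, 47 fell in the first series, 59 in the parallel series and 57 in the adherent course, and none rose, with median slopes of -0.47, -0.55 and -0.49. *Ppan*, a factor of large subunit assembly, was at 83.4 FPKM at 0 h and 29.5 FPKM at 142 h of the first series (slope -1.12, adjusted p = 7.4e-06). *Npm1*, a nucleolar chaperone and the most abundant of the list, was not called there (-0.31, adjusted p = 0.106), fell in the parallel series (-0.53, adjusted p = 0.0168) and was not called in the adherent course (-0.47, adjusted p = 0.0728). Of 34 RNA polymerase I and III genes 2 rose and 13 fell in the first series, 3 and 16 in the parallel series and 1 and 23 in the adherent course. Among 36 translation initiation genes these numbers were 3 and 17, 1 and 21, and 1 and 17, and among 12 elongation genes 1 and 3, 0 and 4, and 1 and 6. Of 11 ribosomal components and similar messengers outside the rule, 2 rose and 2 fell, 1 and 3, and 1 and 2. Within 20 regulators of ribosomal protein synthesis 2 rose and 3 fell, 3 and 6, and 3 and 8. *Eif4ebp1*, an inhibitor of cap-dependent initiation controlled by mTOR, had slopes of -1.62, -1.10 and -1.25, and *Mycl1*, a Myc family factor, had slopes of 2.45, 1.39 and 2.06, all called.

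In E14, 15.5% of all genes rose and 10.3% fell in WT, and 11.8% and 7.56% in KO. For ribosome biogenesis 1 of 69 genes rose and 2 fell in WT, and 1 rose and 3 fell in KO. RNA polymerase I and III genes gave 0 rises and 3 falls in WT and 0 and 2 in KO, initiation genes 2 and 5 in WT and 5 and 4 in KO of 35, and elongation genes 1 and 0 of 12 in both. Components outside the rule gave 2 and 1 in WT and 3 and 0 in KO of 11, and regulators 2 and 2 in WT and 1 and 3 in KO of 20. Naive genes gave 9 falls of 10 in WT and 7 in KO, progenitor genes 3 rises of 5 and 1, and neuron genes 3 rises of 6 in WT and 1 rise and 1 fall in KO. Fibroblast genes gave 1 rise of 4 in WT and 2 in KO, and mesoderm and endoderm genes 1 rise and 1 fall of 6 in WT. Between KO and WT and in the difference of the changes limma called 0 genes of these lists.

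Single cells show which of these levels existed side by side in 1 cell. Values are log10(RPKM + 1) after quantile normalization between the cells, so a general change of level is removed in part, and no test was made because the 8 cells of a time point come from 1 culture as far as the labels tell. *Rps4y2* and *Rpl10l* had the largest falls of the mean from 0 h to 216 h, and *Rpl22l1* the largest rise. Of the 86 members 74 were above 0 in all 64 cells and 84 in at least 32. *Rpl3l* was above 0 in 4 cells, all of 0 h.

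The members' median level per cell averaged 2.16 ± 0.16 (SD over 8 cells) at 0 h, 2.18 ± 0.12 at 9 h, 2.05 ± 0.18 at 38 h and 2.13 ± 0.17 at 60 h. It averaged 2.23 ± 0.10 at 84 h, 2.31 ± 0.17 at 106 h, 2.03 ± 0.08 at 144 h and 2.12 ± 0.24 at 216 h. It was lowest at 144 h and highest at 106 h, and several other pairs of time points also differed by more than the SD of either. The members' share of the summed RPKM had a median of 15.96% at 0 h, 15.7% at 106 h, 10.0% at 144 h and 9.44% at 216 h, and genes above 0 numbered 8972, 7270, 6145 and 7952 (medians). The within-time SD had a median of 0.24 over members and 0.53 over the 8546 genes above 0 in at least 32 cells. Between 0 h and 216 h the mean was higher for 36 of 84 members and lower for 48, with a median difference of -0.06 against -0.00 over those genes.

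*Rpl4* (3.81), *Rplp0* (3.75) and *Rps2* (3.71) had the highest mean over the 64 cells, and *Rpl3l* (0.03), *Rpl39l* (0.20) and *Rpl22l1* (0.35) the lowest. Among large subunit members, *Rpl5* went from 3.37 ± 0.07 at 0 h to 2.87 ± 0.27 at 216 h, while *Rpl34* went from 0.43 ± 0.36 to 1.01 ± 0.59 and *Rpl37a* from 0.89 ± 0.36 to 1.44 ± 0.18. Of the small subunit, *Rps6* went from 3.16 ± 0.11 to 2.65 ± 0.34, *Rps28* from 0.62 ± 0.33 to 1.22 ± 0.40 and *Rps29* from 0.59 ± 0.35 to 1.19 ± 0.39. *Rps19bp1* went from 1.09 ± 0.58 to 0.60 ± 0.38. Longer transcripts tended to have the higher levels in cells (Spearman rho with transcript length 0.527 across 85 genes, 0.409 and 0.493 with the other transcript choices). In the bulk sets they did not: over the 3 choices rho lay between -0.0975 and 0.0654 in SFEB populations and the adherent course and between -0.338 and -0.279 in E14.

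*Rps4y2* averaged 3.23 ± 0.14 at 0 h, 3.20 ± 0.23 at 38 h, 2.31 ± 0.75 at 84 h, 2.17 ± 0.70 at 144 h and 1.64 ± 0.77 at 216 h, and it was above 0 in all 64 cells. The cells were alike up to 60 h and spread widely at 84 h, 144 h and 216 h, but less at 106 h (2.71 ± 0.29). *Rpl10l* averaged 1.80 ± 0.89 at 0 h, 1.95 ± 0.82 at 38 h, 0.81 ± 0.85 at 60 h, 1.396 ± 0.31 at 144 h and 0.63 ± 0.65 at 216 h, where 6 of 8 cells were above 0, so its fall was not steady. *Rpl39l* was above 0 in 29 of the 64 cells, 7 of 8 at 0 h and 4 of 8 at 216 h, and averaged 0.22 ± 0.28 at 0 h, 0.58 ± 0.63 at 9 h and 0.17 ± 0.28 at 216 h. *Rpl22l1* averaged 0.06 ± 0.08 at 0 h with 4 of 8 cells above 0, and 0.78 ± 0.53 at 216 h with 7 of 8, but 0.17 ± 0.45 at 144 h with 2 of 8. Of the parents, *Rpl10* went from 3.28 ± 0.15 to 2.98 ± 0.33, *Rps4x* from 3.09 ± 0.13 to 2.85 ± 0.55 and *Rpl39* from 0.80 ± 0.34 to 1.16 ± 0.38. At 216 h the cell numbered 16 had an *Rpl10l* value of 1.79 and an *Rps4y2* value of 3.17, the highest of that time point for both, and a members' share of 16.5%. The naive list, of which *Pou5f1* was the most abundant gene in the cells, summed to 1101 RPKM in that cell. In the other 7 of 216 h it summed to between 4.22 and 65.0 RPKM. The highest share at 216 h was that of the cell numbered 1, 17.2%, with a naive sum of 10.0 RPKM. At 144 h the cell numbered 11 had the highest *Rps4y2* value of that time point, 3.56. Its naive sum was 1515 RPKM, against between 54.3 and 952 RPKM in the other 7 of 144 h. Its *Rpl10l* value of 1.65 was below those of the cells numbered 2 (1.80) and 17 (1.68), whose naive sums were 178 and 153 RPKM. All of these cells are included in the means given.

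The genes outside the family whose level was most like the members' median over the 15 adherent libraries were *2410003K15Rik* (Pearson r = 0.868, and 0.759 over the 14 first-series libraries), *Nrp* (0.857 and 0.483), *2510002D24Rik* (0.848 and 0.206), *Tmem150a* (0.847 and -0.111) and *Bambi* (0.836 and 0.425). The libraries of a course share time and culture, and for 4 of the 5 genes the likeness was much weaker in the first series.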

How the data were processed

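The values used were those deposited by the authors. The adherent and E14 tables held FPKM. The SFEB population table held FPKM after the authors' ComBat batch correction, on a linear scale, and its 1256 values below 0 were set to 0. The SFEB cell table held log10 of RPKM + 1 after the authors' quantile normalization. According to the submitters' processing notes, reads were mapped with TopHat2 2.0.8b to mm9 for R1 samples and mm10 for E14 samples and quantified with Cufflinks 2.1.1. The study's methods, the source of the limit on alignments per read, name other versions of both. Sequencing depth by library is not given with the tables, though the paper states a minimum number of reads per library where it describes the single cells.

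Each test was a limma fit over all genes of a table on log2(FPKM + 1), with moderated variances that follow the level and p values adjusted by Benjamini and Hochberg over all genes tested. A gene was called below an adjusted p of 0.05. E14 genes needed at least 1 FPKM in 3 of 12 libraries, SFEB genes more than 0.5 FPKM in 8 of 22 and adherent genes more than 0.5 FPKM in 5 of 15. The 12 E14 libraries were fitted together. The procedures were tested on simulated data. No label or source says that replicates were separate cultures, so the p values measure only the spread between libraries. A check of equal replicate numbers for pairing used correlations of the residuals.

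Named were, in each comparison, the members with the 5 largest rises and 5 largest falls among those called, and in cells those with the 5 largest differences each way from 0 h to 216 h among members above 0 in at least 32 cells. To these were added the paralogs with their parents, *Rps19bp1*, the 3 highest and 3 lowest members, *Fyn*, the most abundant gene of each marker list and the 5 genes most like the members' median. A member that this rule would name is not reported here. *Rpl11*, *Rps6*, *Rpl31* at day 0, *Rplp1*, *Ppan*, *Eif4ebp1* and *Mycl1* were chosen outside that rule after their values were seen. Members and gene lists were chosen with earlier results of these data known.

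Copies were counted as 100-base windows of a transcript that occur exactly elsewhere in the mm9 genome. The transcript was chosen by 3 rules, of which 2 were added after the copied shares of the previous rule were seen, and 14 of 85 genes moved by more than 10 points between them. Fits were made in R 4.3.3 with limma 3.58.1. Sequence work used biopython 1.88 and numba 0.67.0, figures matplotlib 3.10.9, and tables pandas 2.3.3, numpy 2.4.6 and scipy 1.17.1, all under Python 3.11.15.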

Additional observations from a re-analysis of the deposited data

How the results depend on the processing

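Some of the alternatives were chosen after the data were seen. Counts of called members moved with the scaling, with the filter and variance trend in E14, and with single libraries. In WT at day 4 against day 0, members called higher numbered 0 with no filter, 0 with aligned medians and 0 with no variance trend, against 3. Quantile normalization gave 4 higher and 2 lower. All genes called higher numbered 1981, 1554 and 1910 in the same order, against 1904. Quantile normalization gave 1576 higher and 1532 lower of all genes. In KO, members called higher numbered 1 with no filter, 1 with quantile normalization and 4 with no variance trend, against 7. Members called lower numbered 0 with each of these, against 1, while aligned medians gave 7 higher and 1 lower. Of all genes in KO 1427, 1226 and 1442 were higher in that order, against 1443, and 805, 1176 and 884 lower, against 927. With aligned medians 1358 were higher and 1115 lower.

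In the first series, members called higher numbered 0 with aligned medians, 9 with quantile normalization and 11 without the 2 h and last libraries, which gave 6 lower. All genes called higher numbered 3050, 3901 and 3419 in the same order, against 4001. Without the 2 h and last libraries 2945 of all genes were lower, against 3194. In the parallel series, members called higher numbered 3 with quantile normalization and 2 before 144 h, and members called lower 50 with aligned medians, 14 with quantile normalization, 8 on the rank of time and 1 before 144 h. All genes called lower in that series also moved, from 2373 to 3745, 2996, 1765 and 546 in the same order. In the adherent course, members called higher numbered 0 with aligned medians, 9 with quantile normalization, 5 on the rank of time and 5 before 144 h. Members called lower numbered 57, 14 and, before 144 h, 17. All genes called higher numbered 3161, 3719, 4865 and 4502 in the same order, against 4759. Those called lower numbered 4976, 4037 and, before 144 h, 3163, against 3155. The cause was not tested.

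With 1 library left out in turn, members called higher and lower ranged from 0 to 3 and 1 to 3 in WT, 0 to 9 and 0 to 1 in KO, 2 to 12 and 6 to 17 in the first series, 0 to 1 and 4 to 22 in the parallel series and 1 to 5 and 13 to 37 in the adherent course. Between KO and WT at either day and in the difference of the changes they stayed at 0. All genes called higher and lower ranged from 1106 to 2122 and 711 to 1406 in WT. In KO they ranged from 636 to 1857 and 405 to 1206. The ranges were 3444 to 4020 and 2819 to 3278 in the first series and 1678 to 3831 and 954 to 2642 in the parallel series. In the adherent course they were 4481 to 4799 and 2933 to 3241. The share of the members had means from 28.5% to 30.2% in WT and 29.0% to 30.7% in KO at day 0, and from 21.5% to 28.3% and 27.9% to 32.6% at day 4. With the 100 highest other genes out of the total, the share was 37.4% in WT and 38.2% in KO at day 0, and 39.7% and 42.3% at day 4. Without small RNA genes it was 31.7% in WT at day 4.

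With 1 cell left out, the mean of the cell medians minus that of 0 h ranged from -0.02 to 0.05 at 9 h, -0.15 to -0.08 at 38 h, -0.07 to -0.00 at 60 h, 0.03 to 0.10 at 84 h, 0.10 to 0.18 at 106 h, -0.17 to -0.10 at 144 h and -0.08 to 0.02 at 216 h.

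Of the named members called, 2 slopes changed sign, both in the parallel series before 144 h, *Rpl26* to 0.10 and *Rps27l* to 0.12. Several changes that were not called also changed sign with 1 library left out, such as that of *Rps27* (-0.71 to 0.31 in the first series, -0.71 to 0.83 in the parallel series), and slopes in the parallel series of *Rpl36a* (-0.30 to 0.18) and *Rps4x* (-0.24 to 0.15). Among named results over all settings 2472 stayed the same, 130 were weaker, 36 stronger and 3 moved. A result that was not called counted as the same if it stayed uncalled, even with a changed sign. The 2472 therefore do not measure how stable the called results were. Among the counts of called members, the shares and the cell medians, 391 stayed the same and 66 moved.

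Residuals of equal replicate numbers were correlated in 2 pairings: 0.199, 0.220 and 0.224 between the days in WT, and 0.136, 0.258 and 0.240 between genotypes at day 4. Between the days in KO they were near 0 (0.0239, 0.0899 and 0.00112). Between genotypes at day 0 they differed in sign (0.0628, 0.339 and -0.115). With the replicate number as a block, members called numbered 3 higher and 2 lower in WT and 10 higher and 1 lower in KO, where *Rpl36a* was then called (0.42, adjusted p = 0.0498). Over all genes the KO rises went from 1443 to 1696 with this block.

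Several limits apply. Every course had 1 library per time point, the KO line was 1 clone, and a changed mix of cells cannot be told apart from a change within cells. Reads from copies of these genes could not be followed in the deposited values. The batch correction of the SFEB table could not be undone, and the first and parallel series were therefore not compared directly. Annotation differs between the tables.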
